A study of Mus musculus with 16 samples.

Results

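Cytochrome P450 genes were followed in eWAT, the white fat pad attached to the epididymis, across mice that differed in diet and in Apoa4 genotype label. The members were all genes of the deposited table with an Entrez number and a symbol made of Cyp and a digit, with Cyp51, the sterol demethylase of cholesterol synthesis, left out. This gave 98 of the 20101 genes in the table. Of these 98, 22 reached 1 FPKM in at least 4 of the 16 libraries and were tested, and 76 stayed under that filter. FPKM is a fragment count divided by the length of the transcript and by the size of the library. The 22 had to be measurable in at least 4 libraries, of any group, to be tested, and they do not stand for the whole family.

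The 16 libraries came from 16 mice, 4 in each group, all 21 weeks old. HFD KO mice ate a diet with 60% fat from 5 weeks of age and are called KO in the sample titles. HFD WT mice ate that diet too and are called WT. Chow KO and chow WT mice ate chow with 5% fat throughout. For the samples titled KO the genotype field reads ApoA4 knockdown, so the labels give 2 kinds of loss for the same mice, and neither the allele nor the strain is described. Apolipoprotein A-IV, the product of Apoa4, is a lipid-binding protein of the blood. Apoa4 measured 4.93 to 9.63 FPKM in HFD KO, 0 to 0.29 in HFD WT, 1.96 to 5.96 in chow KO and 0.09 to 0.29 in chow WT. Its RNA was thus higher in every library labelled KO than in any labelled WT, which goes against the labels, and all directions below are between labels.

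Cytochrome P450 enzymes are haem proteins that insert 1 atom of oxygen into a lipid, steroid, vitamin or foreign compound. Those in the endoplasmic reticulum take their electrons from the reductase Por, with cytochrome b5 as a helper. Those in mitochondria take them from ferredoxin reductase through ferredoxin. The liver holds most of the drug-metabolising families, and adipocytes are a known site of Cyp2e1, an enzyme of ethanol, acetone and fatty acid oxidation.

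The promoters below belong to 5 members on which the results turn and which RefSeq's table for GRCm38.p6 holds. Each runs 5′ to 3′ on the gene's strand, from 250 bases before the transcript start it was built on to 49 after it, 300 bases in all. For Cyp27a1 that start is not the first base of the gene, chr1:74713148, and the window lies inside the gene. Capitals mark TATAAA in Cyp2e1, GGGCGG read on the opposite strand (CCGCCC) in Cyp27a1, Cyp4v3 and Cyp4b1, and GCGTG in Cyp4v3. Cyp2f2 holds none of the motifs searched.
Cyp2e1: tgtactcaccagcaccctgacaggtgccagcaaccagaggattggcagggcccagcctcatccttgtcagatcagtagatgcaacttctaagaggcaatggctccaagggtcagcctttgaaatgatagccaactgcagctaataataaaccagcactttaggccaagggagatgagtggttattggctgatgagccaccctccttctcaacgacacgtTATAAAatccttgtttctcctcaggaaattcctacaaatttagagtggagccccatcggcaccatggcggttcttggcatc
Cyp2f2: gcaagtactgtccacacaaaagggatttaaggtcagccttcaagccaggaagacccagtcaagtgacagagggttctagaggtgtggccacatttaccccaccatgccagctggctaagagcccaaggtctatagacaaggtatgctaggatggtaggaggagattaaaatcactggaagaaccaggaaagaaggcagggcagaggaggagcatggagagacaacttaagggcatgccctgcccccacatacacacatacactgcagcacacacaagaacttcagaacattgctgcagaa
Cyp27a1: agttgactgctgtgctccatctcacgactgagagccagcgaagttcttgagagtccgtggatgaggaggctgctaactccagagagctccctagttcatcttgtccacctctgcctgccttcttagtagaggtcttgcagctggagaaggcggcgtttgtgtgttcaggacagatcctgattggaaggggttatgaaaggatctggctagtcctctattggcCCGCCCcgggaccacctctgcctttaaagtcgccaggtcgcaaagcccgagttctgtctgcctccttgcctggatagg
Cyp4v3: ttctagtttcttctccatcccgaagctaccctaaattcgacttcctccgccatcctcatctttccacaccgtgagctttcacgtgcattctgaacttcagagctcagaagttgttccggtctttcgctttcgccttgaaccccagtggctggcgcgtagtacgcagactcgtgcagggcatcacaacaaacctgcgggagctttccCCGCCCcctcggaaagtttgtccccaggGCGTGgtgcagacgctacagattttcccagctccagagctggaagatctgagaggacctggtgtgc
Cyp4b1: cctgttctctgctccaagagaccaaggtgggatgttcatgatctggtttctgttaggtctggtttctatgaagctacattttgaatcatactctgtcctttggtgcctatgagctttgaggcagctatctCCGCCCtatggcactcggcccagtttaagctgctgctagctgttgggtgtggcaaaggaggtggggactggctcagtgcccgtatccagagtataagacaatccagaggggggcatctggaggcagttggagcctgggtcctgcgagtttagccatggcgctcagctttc
Cyp2e1 lies at chr7:140763569-140763868 (plus strand) and Cyp2f2 at chr7:27119705-27120004 (plus strand). Cyp27a1 lies at chr1:74713285-74713584 (plus strand), Cyp4v3 at chr8:45333114-45333413 (minus strand) and Cyp4b1 at chr4:115647672-115647971 (minus strand). Of all members, 76 of 98 had a promoter in the table, and of the tested members 17 of 22 had one. Both strands were searched, and no matches overlapped in these 5 promoters. GCGTG, the core of the response element of the aryl hydrocarbon receptor, was in 7 of the 17 promoters (41.2%), against 32.4% of all 32851. The direct repeat of AGGTCA with 1 base of any kind between, which PPAR and RXR bind, was in 0 of 17, against 0.0396% of all. TATAAA was in 3 of 17 (17.6%), against 13.6% of all, and GGGCGG in 10 of 17 (58.8%), against 35.7%. The last pair of motifs was chosen after the sequences were seen. A match is a description of letters in this window only.

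Summed over genes, the libraries held 413200 to 468200 FPKM, and 11554 to 13184 genes reached 1 FPKM. All 12 adipocyte markers listed were present, and their sum was 4355 to 16400 FPKM in HFD KO, 6749 to 20190 in HFD WT, 18240 to 42300 in chow KO and 34170 to 36790 in chow WT. The sum of 12 macrophage markers was 2493 to 6298 FPKM in HFD KO, 2013 to 8920 in HFD WT, 446.6 to 547.5 in chow KO and 601.6 to 705.5 in chow WT. Genes of the epididymis stood out in 3 libraries. Replicates 2 and 4 of HFD KO had summed values of 343.4 and 5437 FPKM over 10 such genes, and replicate 2 of chow KO had 12040 FPKM, against at most 40.24 FPKM elsewhere. The genes behind these sums differed. In replicates 2 and 4 of HFD KO most was Crisp1 (276.26 and 3799.34 FPKM) and Spink8 (61.52 and 1309.47), with Gpx5 at 2.97 and 0.25. In replicate 2 of chow KO, Gpx5 (4187.27 FPKM), Lcn9 (2787.65) and Lcn8 (2468.68) were highest, with Crisp1 at 180.28. The sum of 10 hepatocyte markers was 5.06 to 79.97 FPKM in HFD KO, 2.85 to 85.28 in HFD WT, 7.59 to 23.3 in chow KO and 35.13 to 260.6 in chow WT. Over all 16 libraries, progenitor and fibroblast markers summed to 1272 to 2971 FPKM, mesothelial markers to 33.19 to 269.1, endothelial markers to 61.51 to 220.6 and steroidogenic markers to 43.22 to 250.7. Most of the steroidogenic sum was Mrap, at 35.56 to 215.01 FPKM, and Mc2r, at 4.42 to 35.06. The other steroidogenic markers stayed at or below 3.24 FPKM, apart from Insl3, at 13.36 in chow KO replicate 2.

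On chow, Cyp2e1 held most of the P450 RNA of this fat pad, and the other members together stayed at or below 367 FPKM. The summed FPKM of all 98 members was 214.7, 551.3, 218.0 and 412.5 in the HFD KO libraries. It was 380.4, 293.8, 200.5 and 381.9 in HFD WT, 3154, 1903, 3935 and 4865 in chow KO, and 6225, 4945, 5300 and 5042 in chow WT. All 8 HFD libraries lay below all 8 chow libraries. Cyp2e1 made up 1.87% to 49.4% of that sum in HFD KO, 2.41% to 49.1% in HFD WT, 90.2% to 95.01% in chow KO and 92.6% to 94.1% in chow WT. Without Cyp2e1, the sum was 198.4 to 290.7 FPKM in HFD KO, 186.9 to 234 in HFD WT, 186.6 to 242.5 in chow KO and 327.6 to 367 in chow WT. Chow WT alone then stood above the other 3 groups, which overlapped. Members under the filter made up 63.57 and 95.05 FPKM of this sum in HFD KO replicates 2 and 4, which hold epididymal genes. They made up 5.44 and 4.33 FPKM in HFD KO replicates 1 and 3, and 7.89 to 48.78 in chow WT.

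**Figure D1:**
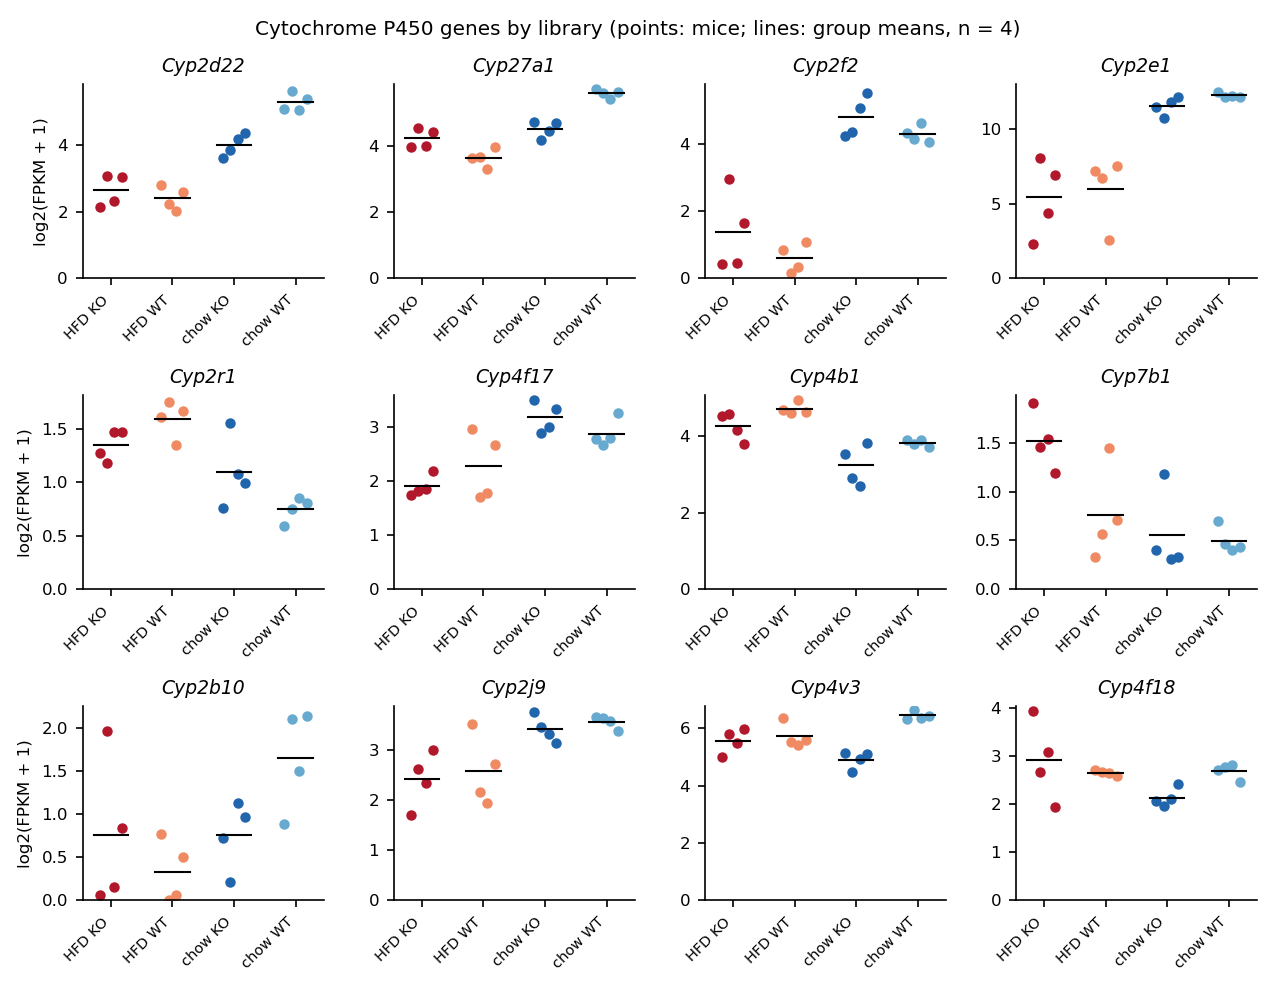
log2(FPKM + 1) of the 12 members given by library, 1 panel per gene, with the groups HFD KO, HFD WT, chow KO and chow WT from left to right; points are mice and lines are group means (n = 4). In Cyp2e1, Cyp2f2 and Cyp2d22 all HFD points lie below all chow points, and in Cyp27a1 the chow WT points lie above the other 12.

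Diet gave the largest P450 differences. In HFD WT against chow WT, 11 of the 22 tested members passed the threshold, a Benjamini-Hochberg adjusted p under 0.05 over 12667 genes in limma on log2(FPKM + 1), against 41.9% of all genes tested. Of these 11, 3 rose (24.6% of all genes did) and 8 fell (17.2% of all genes did). The median difference of the 22 was −0.56 log2 units, against 0.06 over all genes. In HFD KO against chow KO, 9 of 22 passed, against 38.9% of all genes. Here 4 rose and 5 fell, against 23.5% and 15.3% of all genes, and the median was −0.05, against 0.08 over all genes. The shares called were near those of all genes. Groups that did not overlap gave a like picture: 5 members were higher and 6 lower in HFD WT than in every chow WT library, against 26.1% and 20.7% of all genes (46.9% in either direction). In HFD KO against chow KO, 1 was higher and 5 were lower, against 17.5% and 11.3% (28.7% in either direction). Scaling moved the split: with quantile normalization 2 rose and 10 fell in the WT comparison, and with median-of-ratios or quantile scaling 2 rose and 5 fell in the KO comparison. The split of all genes moved too. Unscaled, 3121 genes rose and 2183 fell in the WT comparison, and 2979 rose and 1943 fell in the KO one. With quantile normalization these were 2493 and 2953 in WT, and 2279 and 3105 in KO. Median-of-ratios scaling gave 2578 and 2612 in KO.

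Cyp2e1, Cyp2f2, Cyp2d22 and Cyp2j9 fell in both diet comparisons and Cyp4b1 rose in both. Cyp4v3 passed in both with opposite signs. Cyp27a1, Cyp2b10 and Cyp2j6 fell and Cyp2r1 and Cyp4f16 rose past the threshold in the WT comparison, while Cyp4f17 fell and Cyp4f18 and Cyp7b1 rose past it in the KO comparison. Whether a diet difference itself differed between the labels was tested by the interaction, the HFD KO minus HFD WT difference less the chow KO minus chow WT difference. Only Cyp27a1 passed that test, 1 of 22 members against 0.292% of all genes (0.253% positive and 0.0395% negative).

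**Figure D2:**
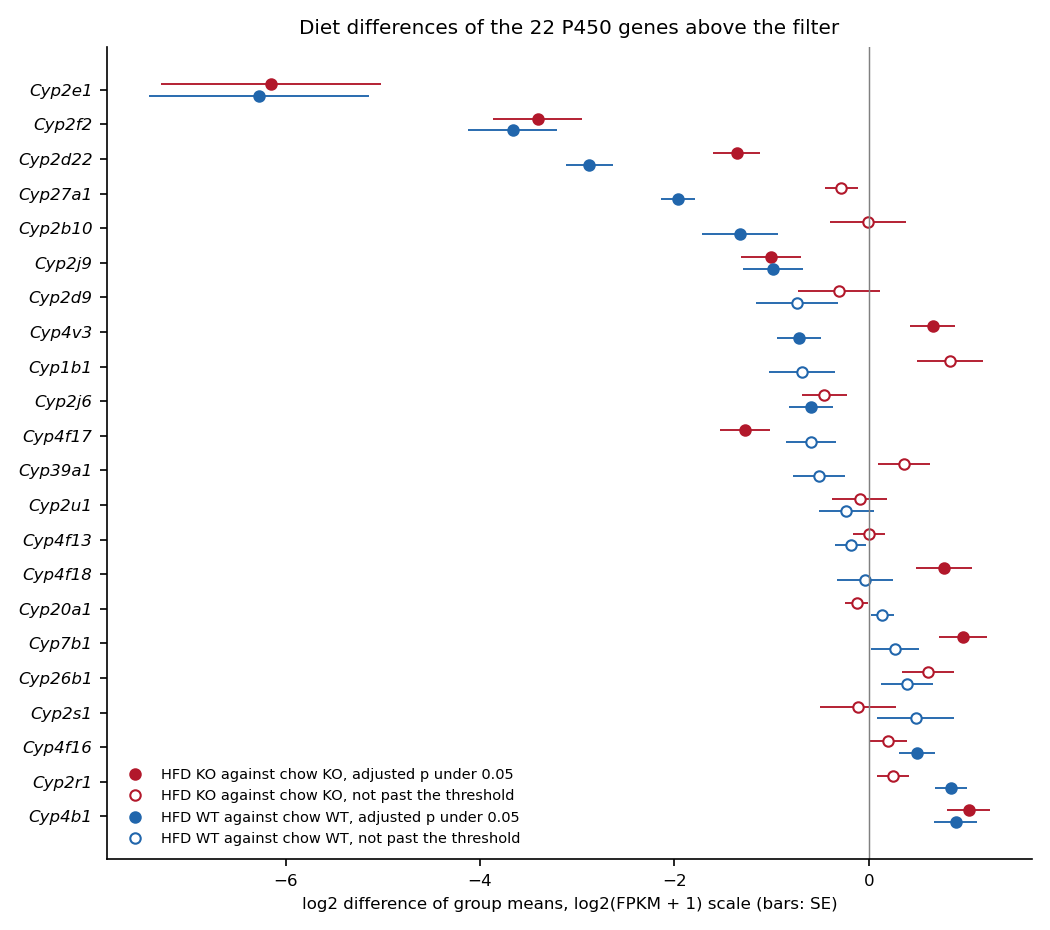
Differences in log2(FPKM + 1) between HFD and chow for the 22 tested members, for KO (red) and WT (blue), with bars of 1 SE from limma and filled points for an adjusted p under 0.05. Points left of 0 are lower on HFD, and Cyp2e1 lies farthest left, at −6.15 in KO and −6.27 in WT.

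Enzymes of families 2 and 3 known mainly for handling foreign compounds, without the 2j, 2u and 2r genes given below by their lipid and vitamin roles, make up 48 of the members, of which 6 were tested. Cyp2e1 (Entrez 13106, chr7:140763819-140774990 in GRCm38.p6) measured 4.01, 272.42, 19.51 and 121.82 FPKM in the HFD KO libraries. The HFD WT libraries had 146.37, 106.96, 4.84 and 187.61 FPKM. Chow KO libraries had 2945, 1717, 3733 and 4622 FPKM, and chow WT libraries 5858, 4579, 4973 and 4699 FPKM. Every chow library was above every HFD library, and within the HFD groups the lowest and highest libraries differed by more than a factor of 10. The mean was 104 ± 124 FPKM in HFD KO against 3254 ± 1233 in chow KO, and 111 ± 78.3 in HFD WT against 5027 ± 578 in chow WT (SD, n = 4 in each group). Log2 differences were taken between group means of log2(FPKM + 1), not between these FPKM means. They were −6.15 in KO (SE 1.13, adjusted p = 0.00104, limma) and −6.27 in WT (SE 1.13, adjusted p = 0.000672, limma). Between KO and WT no difference passed the threshold: it was −0.59 on HFD, with a 95% interval of −3.00 to 1.82.

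Ordered by FPKM, Cyp2e1 stood between ranks 201 and 9397 of all genes in HFD KO, 346 and 8465 in HFD WT, 6 and 20 in chow KO, and 5 and 7 in chow WT. The adipocyte marker sum was lower on HFD too, though HFD WT replicate 1, at 20190 FPKM, was above chow KO replicate 2, at 18240. Among the HFD libraries, HFD KO replicate 1 and HFD WT replicate 3 had the lowest Cyp2e1 and also the lowest adipocyte marker sums of their groups, 4355 and 6749 FPKM. Otherwise the HFD libraries were not in the same order: HFD KO replicate 2 had the highest Cyp2e1 of its group with a sum of 8928 FPKM, below replicates 3 and 4 (9194 and 16400 FPKM), and HFD WT replicate 4 had more Cyp2e1 than HFD WT replicate 1 with a lower sum, 13980 FPKM. Among the chow libraries, chow KO replicate 2 had the lowest of both, 1717 FPKM of Cyp2e1 and 18240 FPKM of adipocyte markers. The part of these markers in the difference was not tested. In bulk tissue, fewer cells of a type and less RNA per cell cannot be told apart.

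**Figure D3:**
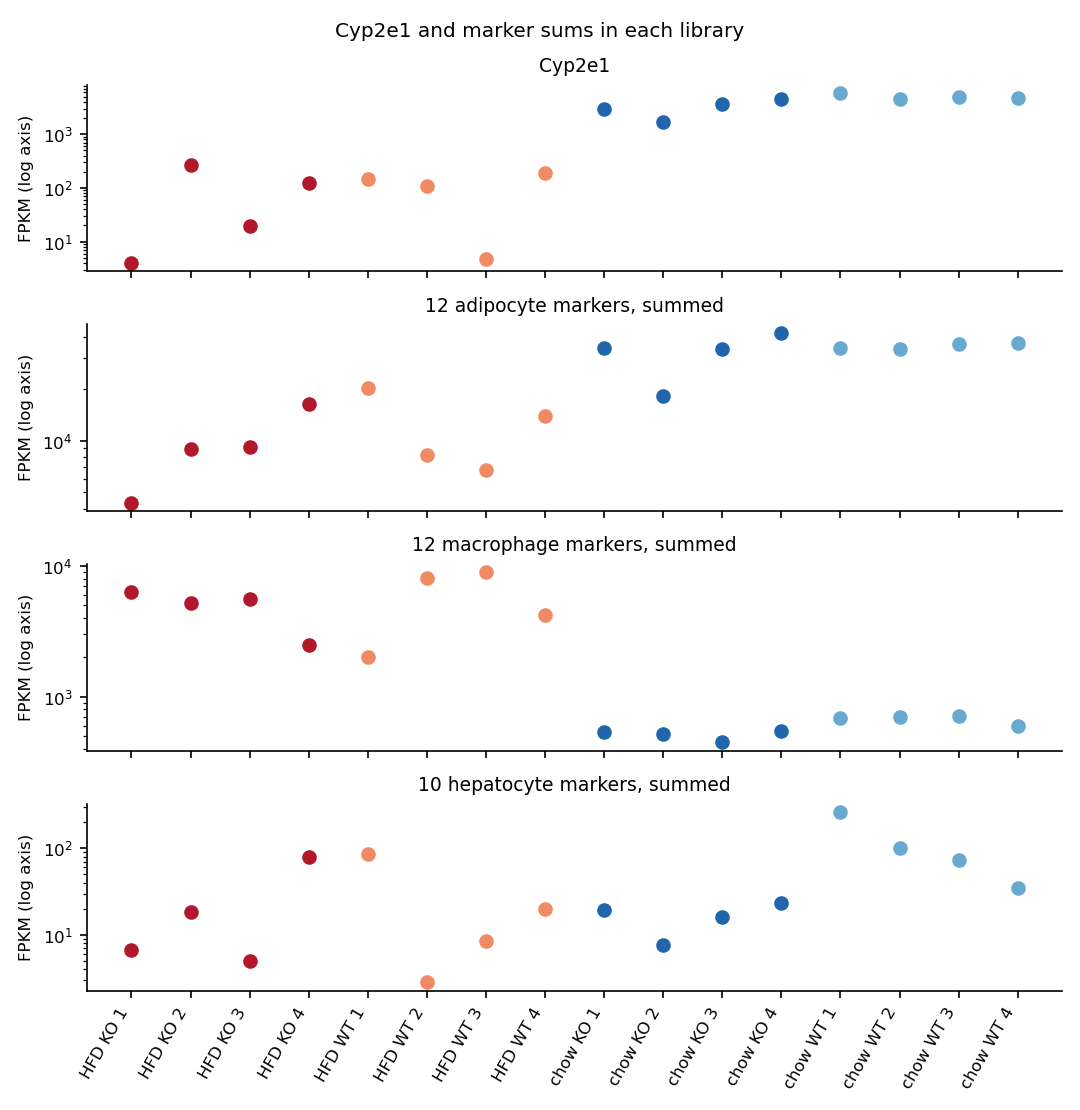
Cyp2e1 and the summed FPKM of 12 adipocyte, 12 macrophage and 10 hepatocyte markers in each library, on log axes of FPKM, with HFD KO, HFD WT, chow KO and chow WT from left to right. Cyp2e1 and the adipocyte sum are low in the HFD libraries, where the macrophage sum, from 2013 to 8920 FPKM, is high.

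Cyp2f2, which in mouse lung activates naphthalene, measured 0.34, 6.76, 0.38 and 2.12 FPKM in HFD KO and 0.80, 0.12, 0.27 and 1.09 in HFD WT. It measured 17.57, 19.40, 32.39 and 43.95 FPKM in chow KO and 18.85, 16.46, 23.43 and 15.38 in chow WT. The diet groups did not overlap for either label. Its log2 difference was −3.41 in HFD KO against chow KO (SE 0.459, adjusted p = 0.00015) and −3.67 in HFD WT against chow WT (SE 0.459, adjusted p = 5.84e-05).

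Cyp2d22, a member of the drug-metabolising 2d family, differed both by diet and by label. The HFD KO libraries had 3.42, 7.43, 3.99 and 7.21 FPKM, and the HFD WT libraries 5.98, 3.70, 3.04 and 5.06 FPKM. Chow KO libraries had 11.26, 13.54, 17.06 and 19.60 FPKM, and chow WT libraries 32.71, 48.62, 32.35 and 40.66 FPKM. The chow KO libraries thus lay between the HFD libraries and the chow WT libraries without overlap. The log2 difference was −1.36 in HFD KO against chow KO (SE 0.244, adjusted p = 0.000923) and −2.87 in HFD WT against chow WT (SE 0.244, adjusted p = 2.71e-06). In chow KO against chow WT it was −1.28 (SE 0.244, adjusted p = 0.0177). That last call was lost without chow WT replicate 2, chow WT replicate 4 or chow KO replicate 1, where the adjusted p reached 0.0817.

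Cyp2b10, the phenobarbital-inducible enzyme and a target of the receptor Nr1i3, was near the filter. It measured 0.04, 2.90, 0.11 and 0.78 FPKM in HFD KO and 0.70, 0, 0.04 and 0.42 in HFD WT. In chow KO it measured 0.65, 0.16, 1.19 and 0.96 FPKM, and in chow WT 0.84, 3.28, 1.83 and 3.41. HFD WT lay below chow WT without overlap, by −1.32 log2 units (SE 0.392, adjusted p = 0.0144). Of its transcript's stretches of 50 bases, 9.70% also occur in other genes, mostly Cyp2b13, so reads could be shared. The other tested members of this role, Cyp2s1 and Cyp2d9, passed no threshold. Cyp2s1, an extrahepatic epithelial P450, was 1.66 to 5.07 FPKM in HFD KO, 1.82 to 10.90 in HFD WT, 1.94 to 4.80 in chow KO and 1.68 to 3.40 in chow WT. Cyp2d9, a male-biased liver steroid hydroxylase, was 0.04 to 1.34 FPKM in HFD KO, 0 to 0.80 in HFD WT, 0.06 to 2.78 in chow KO and 0.14 to 2.26 in chow WT. It passed the filter through chow WT replicates 1 and 2 (2.26 and 1.43 FPKM), chow KO replicate 2 (2.78) and HFD KO replicate 4 (1.34). Both of these KO libraries hold epididymal genes.

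Among the 6 enzymes of bile acid and oxysterol synthesis, 3 were tested. Cyp27a1 (Entrez 104086, chr1:74713148-74737897), the mitochondrial hydroxylase of the cholesterol side chain, measured 14.77, 22.58, 15.12 and 20.66 FPKM in HFD KO. It measured 11.54, 11.78, 8.88 and 14.91 FPKM in HFD WT, 25.65, 17.33, 21.06 and 25.33 in chow KO, and 53.12, 48.26, 42.43 and 49.25 in chow WT. All 4 chow WT libraries were above the other 12 libraries. Cyp27a1 fell in HFD WT against chow WT, by −1.96 log2 units (SE 0.172, adjusted p = 3.57e-06), and in chow KO against chow WT, by −1.09 (SE 0.172, adjusted p = 0.00524). Both comparisons use the same chow WT libraries. In HFD KO against chow KO the groups overlapped and the difference did not pass the threshold.

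The interaction for Cyp27a1 was 1.68 log2 units (SE 0.244, 95% interval 1.16 to 2.20, adjusted p = 0.00788), so the KO minus WT difference was more positive on HFD than on chow. On HFD, KO was 0.59 above WT with an adjusted p of 0.302. None of the Cyp27a1 calls changed when any library was left out or under any other setting that gave a value. No other gene of GENCODE shares a stretch of 50 bases with its transcript.

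Cyp7b1, which hydroxylates oxysterols on the way to bile acids, measured 2.75, 1.74, 1.91 and 1.28 FPKM in HFD KO. Its values were 0.26, 0.48, 1.72 and 0.64 FPKM in HFD WT, 0.32, 1.26, 0.24 and 0.26 in chow KO, and 0.62, 0.38, 0.32 and 0.35 in chow WT. HFD KO lay above chow KO without overlap, by 0.97 log2 units (SE 0.249, adjusted p = 0.00735). On HFD, KO was 0.76 above WT with an adjusted p of 0.315 and the groups overlapped. The third tested enzyme, Cyp39a1, an oxysterol hydroxylase of the liver, averaged 2.30 ± 1.73 FPKM in HFD KO, 0.935 ± 0.199 in HFD WT, 1.35 ± 0.322 in chow KO and 1.78 ± 0.421 in chow WT and passed no threshold (SD, n = 4). Its highest value, 4.68 FPKM, was in HFD KO replicate 4, a library with epididymal genes. HFD WT, at 0.69 to 1.16 FPKM, lay below chow WT, at 1.47 to 2.40, without overlap (−0.52, adjusted p = 0.134, limma). That difference passed without HFD KO replicate 4 (adjusted p = 0.0368). It also passed with quantile scaling, without the 3 libraries with epididymal genes and with these groups fitted alone (adjusted p from 0.00783).

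Enzymes of fatty acids and eicosanoids make up 28 of the members, and 9 were tested. Cyp4v3, a fatty acid omega-hydroxylase whose human counterpart is mutated in Bietti crystalline dystrophy, was the second most abundant member. It measured 31.06, 54.23, 44.16 and 62.19 FPKM in HFD KO and 81.08, 45.26, 41.80 and 47.56 in HFD WT. In chow KO it measured 33.89, 21.48, 29.65 and 33.08 FPKM, and in chow WT 79.02, 99.72, 81.91 and 86.09. On chow, every KO library was below every WT library, with a log2 difference of −1.54 (SE 0.229, adjusted p = 0.0033).

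The diet difference of Cyp4v3 was 0.66 in HFD KO against chow KO (SE 0.229, adjusted p = 0.0339) and −0.72 in HFD WT against chow WT (SE 0.229, adjusted p = 0.0204). These calls were less stable. The KO call was lost with median-of-ratios or quantile scaling, with no filter, with these groups fitted alone, without the 3 libraries that held epididymal genes and without any of chow KO replicates 2 and 3 and HFD KO replicates 2, 3 and 4, with an adjusted p up to 0.517. The WT call was lost without chow WT replicate 2, HFD WT replicate 2 or HFD WT replicate 3, with an adjusted p up to 0.0665. The interaction was 1.38 with an adjusted p of 0.104. Of the stretches of 50 bases in its transcript, 7.02% also occur in Gm45753, a gene that overlaps it on the same strand.

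Cyp4b1, a fatty acid hydroxylase known for activating furans in the lung, rose on HFD. It measured 21.93, 22.79, 17.03 and 12.91 FPKM in HFD KO, 24.86, 23.32, 29.96 and 23.77 in HFD WT, 10.54, 6.56, 5.48 and 13.13 in chow KO, and 13.97, 12.89, 13.86 and 12.10 in chow WT. HFD WT was above chow WT without overlap (0.89, SE 0.221, adjusted p = 0.00509). HFD KO was above chow KO (1.02, SE 0.221, adjusted p = 0.00265), although HFD KO replicate 4 and chow KO replicate 4 met. HFD KO replicates lay below all HFD WT replicates, with a 95% interval of −0.92 to 0.02 for the difference and an adjusted p of 0.434. It was the only member whose HFD groups did not overlap between labels, against 6.83% of all genes, of which 5.81% were higher and 1.02% lower in HFD KO.

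Cyp2j9, an arachidonic acid epoxygenase of mouse brain, measured 2.25, 5.16, 4.12 and 7.08 FPKM in HFD KO against 12.71, 10.06, 9.06 and 7.85 in chow KO. It measured 10.50, 3.52, 2.85 and 5.59 FPKM in HFD WT against 11.68, 11.62, 10.99 and 9.55 in chow WT. Only HFD WT replicate 1 reached the chow range. The log2 difference was −1.01 in KO (SE 0.307, adjusted p = 0.0181) and −0.98 in WT (SE 0.307, adjusted p = 0.0187). The KO call was lost without chow KO replicate 1 or HFD KO replicate 1, and the WT call without HFD WT replicate 2 or 3, with an adjusted p up to 0.0685. Its neighbour Cyp2j6 averaged 7.87 ± 3.37 FPKM in HFD WT against 11.75 ± 0.868 in chow WT, a difference of −0.60 (SE 0.228, adjusted p = 0.0473) that 10 of 16 single-library omissions ended (adjusted p up to 0.154), as did constant-sum scaling, no filter and fitting these groups alone.

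Cyp4f17 measured 2.32, 2.53, 2.62 and 3.56 FPKM in HFD KO against 10.22, 6.41, 6.98 and 9.07 in chow KO, and 6.81, 2.24, 2.41 and 5.37 in HFD WT against 5.83, 5.30, 5.97 and 8.53 in chow WT. The KO groups did not overlap (−1.28, SE 0.257, adjusted p = 0.0018) and the WT groups did (−0.59, adjusted p = 0.0756). That the KO and WT differences differed was not shown, since the interaction had an adjusted p of 0.57.

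Cyp4f18, which inactivates leukotriene B4 in mouse neutrophils, measured 14.27, 5.36, 7.54 and 2.83 FPKM in HFD KO and 5.59, 5.35, 5.23 and 4.99 in HFD WT. In chow KO it measured 3.19, 2.87, 3.30 and 4.36 FPKM, and in chow WT 5.50, 5.82, 6.04 and 4.53. HFD KO was 0.77 log2 units above chow KO (SE 0.287, adjusted p = 0.0451), but the groups overlapped and 13 of 16 single-library omissions ended the call, as did median-of-ratios and quantile scaling, no filter and fitting these groups alone, with an adjusted p up to 0.153. HFD KO replicate 1, the highest of all libraries, had a macrophage marker sum of 6298 FPKM, the highest of its group. In HFD WT that sum spanned 2013 to 8920 FPKM while Cyp4f18 stayed at 4.99 to 5.59 FPKM, with the lowest sum in the library of the highest Cyp4f18. Exons of Cyp4f18 overlap Zfp961 on the opposite strand, and no source used here gives the strand of counting.

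Cyp4f16 averaged 7.36 ± 0.597 FPKM in HFD WT against 4.95 ± 0.65 in chow WT (0.50, SE 0.188, adjusted p = 0.0465). The call was lost in 10 of 16 single-library omissions, with median-of-ratios or quantile scaling and with no filter (adjusted p up to 0.121), and 26.5% of its transcript's stretches of 50 bases occur in other genes, mostly Cyp4f37. Cyp4f13 and Cyp2u1, a long-chain fatty acid hydroxylase, passed no threshold. Cyp4f13 averaged 9.10 ± 1.96 FPKM in HFD KO, 8.53 ± 1.87 in HFD WT, 8.997 ± 1.29 in chow KO and 9.73 ± 0.912 in chow WT. Cyp2u1 averaged 3.10 ± 1.62 FPKM in HFD KO, 3.29 ± 1.30 in HFD WT, 3.11 ± 0.646 in chow KO and 3.87 ± 0.401 in chow WT (SD, n = 4).

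Of the 3 vitamin D enzymes only Cyp2r1 was tested. It makes the first hydroxylation of vitamin D, and it measured 1.41, 1.27, 1.77 and 1.77 FPKM in HFD KO, 2.06, 2.37, 1.54 and 2.17 in HFD WT, 0.69, 1.94, 1.11 and 0.99 in chow KO, and 0.51, 0.68, 0.81 and 0.75 in chow WT. HFD WT was above chow WT without overlap (0.84, SE 0.165, adjusted p = 0.00117), and this call held in all 16 single-library omissions and the 10 other settings that tested it. The KO groups overlapped through chow KO replicate 2, and their difference did not pass.

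Of the 3 retinoic acid enzymes only Cyp26b1, which breaks retinoic acid down, was tested. It was 1.21 to 1.79 FPKM in HFD KO, 0.86 to 1.90 in HFD WT, 0.25 to 2.36 in chow KO and 0.50 to 0.82 in chow WT. Its KO diet difference was 0.61 with an adjusted p of 0.0839, and 0.96 with an adjusted p of 0.000711 without chow KO replicate 2, the library with the most epididymal RNA.

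Cyp1b1, which is induced through the aryl hydrocarbon receptor and hydroxylates oestradiol, was the third most abundant member. It measured 62.58, 26.67, 46.79 and 19.78 FPKM in HFD KO, 15.27, 25.21, 47.75 and 20.92 in HFD WT, 20.62, 16.30, 19.25 and 21.78 in chow KO, and 37.60, 36.91, 37.89 and 52.97 in chow WT. On chow the labels did not overlap, KO being 1.04 log2 units below WT (a difference of −1.04), yet the adjusted p was 0.162. It was 0.0066 when these groups were fitted alone. The diet difference was 0.84 in KO (adjusted p = 0.0612) and −0.69 in WT (adjusted p = 0.113), and the interaction 1.52 (adjusted p = 0.244). Without the 3 libraries with epididymal genes both diet differences passed (adjusted p = 0.00614 in KO and 0.0463 in WT). Leaving out single libraries, the KO one passed without HFD WT replicate 1 or 3 or HFD KO replicate 4 (adjusted p from 0.0129) and the WT one without HFD WT replicate 3 (0.0243). Cyp20a1, a P450 with no assigned substrate, ranged from 13.66 to 21.63 FPKM over all 16 libraries.

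Between labels, differences were fewer. In chow KO against chow WT, 3 of 22 members passed the threshold, against 1.41% of all genes. All 3 were lower in KO, which 0.979% of all genes were, and 0 were higher, which 0.426% were. They were Cyp4v3, Cyp2d22 and Cyp27a1. Including Cyp1b1 and Cyp4f18, 5 of 22 members were lower in KO with no overlap, against 6.25% of all genes, and 0 were higher, against 8.94%. The median of the 22 was −0.20, against 0.09 over all genes. The adipocyte marker sum overlapped between these groups. Within it, Cidec (965.64 to 1856.95 FPKM in chow KO against 2688.17 to 2997.81 in chow WT) and Pnpla2 (493.88 to 882.59 against 1516.03 to 1673.77) were lower in KO without overlap. Slc2a4 (43.5 to 96.75 against 30.77 to 41.2) was higher without overlap, and the remaining adipocyte markers overlapped. The hepatocyte sum, 7.59 to 23.3 FPKM in chow KO and 35.13 to 260.6 in chow WT, did not overlap. The part of either set of markers was not tested.

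In HFD KO against HFD WT, 0 of 22 members passed in limma, against 0.0316% of all genes (0.0237% higher and 0.00789% lower). Beside 1500 of all 12667 genes, 4 of the 22 members had an unadjusted p under 0.05. The members Cyp27a1 (0.59), Cyp7b1 (0.76) and Cyp39a1 (0.64) were higher in KO in that count, and Cyp20a1, at 16.83 ± 2.42 FPKM in KO and 20.18 ± 1.09 in WT, was lower. The interaction had 7 members with an unadjusted p under 0.05, beside 1284 of all 12667 genes. The 7 were Cyp27a1, Cyp4v3 and Cyp1b1, given above, and Cyp2d22 (1.51, adjusted p = 0.101), Cyp2r1 (−0.59, adjusted p = 0.374), Cyp2b10 (1.31, adjusted p = 0.409) and Cyp39a1 (0.88, adjusted p = 0.427).

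The genes that serve P450 enzymes were followed through a list of 44, of which 37 were tested. In HFD WT against chow WT, 21 of 37 passed, 10 higher and 11 lower. In HFD KO against chow KO, 20 passed, 10 higher and 10 lower. These are 56.8% and 54.1% of the 37, beside the 41.9% and 38.9% of all genes.

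Of 12 electron donors, 7 passed in each diet comparison. Por, the reductase of all P450 enzymes of the endoplasmic reticulum, was 136.03, 139.03, 141.96 and 133.18 FPKM in HFD KO, 121.16, 114.07, 129.97 and 105.8 in HFD WT, 284.5, 193.61, 166.98 and 229.66 in chow KO, and 323.16, 254.51, 310.23 and 242.91 in chow WT. No HFD library reached the chow range, with differences of −0.64 in KO (adjusted p = 0.00518) and −1.25 in WT (adjusted p = 4.97e-05). Fdx1, the ferredoxin of mitochondrial P450 enzymes such as Cyp27a1, averaged 9.34 ± 3.96 FPKM in HFD KO, 9.75 ± 2.40 in HFD WT, 28.4 ± 10.8 in chow KO and 51.9 ± 13.4 in chow WT. Its differences were −1.51 in KO (adjusted p = 0.00195) and −2.29 in WT (adjusted p = 9.91e-05). The cytochrome b5 reductase Cyb5r4 rose in both comparisons, by 1.09 in KO and 0.97 in WT, and Pgrmc1, a haem-binding partner of P450 enzymes, fell in both (−1.07 and −0.68).

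Of 12 genes of haem synthesis and breakdown, 6 passed in each diet comparison, 4 higher and 2 lower. Hmox1, the inducible haem oxygenase that degrades haem, ranged from 80.09 to 950.97 FPKM in HFD KO, 60.72 to 632.04 in HFD WT, 20.09 to 24.96 in chow KO and 24.07 to 26.85 in chow WT. The diet groups did not overlap, with differences of 3.75 in KO (adjusted p = 0.00123) and 2.58 in WT (adjusted p = 0.00935). Blvra, the biliverdin reductase of the next step, rose by 1.29 in KO and 1.35 in WT. Both Hmox1 and the macrophage marker sum were higher in the HFD libraries, and the part of macrophages was not tested.

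Of 9 tested regulators, 4 passed in the KO diet comparison and 5 in the WT one. Arnt, the partner of the aryl hydrocarbon receptor on DNA, was 20.48 to 22.95 FPKM in HFD KO, 17.77 to 19.51 in HFD WT, 22.82 to 36.93 in chow KO and 39 to 40.14 in chow WT. It fell in HFD WT against chow WT (−1.03, adjusted p = 3.14e-05) and in chow KO against chow WT (−0.53, adjusted p = 0.0393), a call that 11 of 16 single-library omissions ended, as did constant-sum scaling, leaving out the 3 libraries with epididymal genes and fitting these groups alone (adjusted p up to 0.133). Ahr itself rose in HFD KO against chow KO (0.75, adjusted p = 0.00654). Rxra, the shared partner of many nuclear receptors, fell in both diet comparisons (−0.64 in KO and −0.69 in WT), and Rarg fell in the WT one (−0.76).

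Among 4 tested epoxide hydrolases and P450 enzymes with other names, Tbxas1, thromboxane synthase, averaged 37.1 ± 12.5 FPKM in HFD KO, 39.4 ± 17.2 in HFD WT, 6.07 ± 0.749 in chow KO and 8.03 ± 1.08 in chow WT. It rose by 2.37 in KO (adjusted p = 0.000101) and 2.06 in WT (adjusted p = 0.000163), and like the macrophage sum it was higher in every HFD library than in any chow library. Ephx2, the soluble epoxide hydrolase that opens fatty acid epoxides, fell (−1.03 in KO and −1.21 in WT), and Ephx1, the microsomal hydrolase, rose (1.07 in KO and 1.09 in WT). The Ephx2 call in KO was lost without HFD KO replicate 1 or 3 (adjusted p up to 0.0541). Of the 16 single-library omissions, 5 ended the Ephx1 call in KO, as did fitting these groups alone (adjusted p up to 0.0867 over all of these). The Ephx1 call in WT was ended by 3 omissions (adjusted p up to 0.058). In HFD KO against HFD WT, 0 of the 37 partners passed in limma, against 0.0316% of all genes. An unadjusted p under 0.05 was found for 3 of the 37, beside 1500 of all 12667 genes. In the interaction 0 passed, against 0.292% of all genes, and 7 had an unadjusted p under 0.05, beside 1284 of all 12667.

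The 76 members under the filter include all 6 enzymes of steroid hormone synthesis. Of the 76, 8 were at 0 in every library and 68 had a value in some library. For 27 of the 68 the highest library was chow WT replicate 1, for 10 HFD KO replicate 4, for 9 HFD KO replicate 2 and for 4 chow KO replicate 2. Thus 4 of the 16 libraries held the highest value of most of them. Of the 68, 30 reached 1 FPKM somewhere, and 16 of these 30 peaked in chow WT replicate 1.

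Cyp3a11, the main drug-metabolising 3a enzyme of mouse liver, measured 0.03, 0.07, 0 and 0.88 FPKM in HFD KO, 0.30, 0, 0 and 0.06 in HFD WT, 0.19, 0.18, 0 and 0.46 in chow KO, and 6.62, 3.11, 1.33 and 0.82 in chow WT. Alb, the hepatocyte gene of serum albumin, was 0.57 to 39.15 FPKM in HFD KO, 0.75 to 54.83 in HFD WT, 3.26 to 13.55 in chow KO, and 165.30, 67.48, 50.67 and 24.29 in chow WT. Both genes put the chow WT libraries in the same order. Of the 16 members that peaked in chow WT replicate 1, 11 had this order over the chow WT libraries. Without the filter, 24 of 90 members passed in HFD WT against chow WT, beside 5101 of 19161 genes. Lower were 21 of these members, beside 2144 of the 19161 genes. Of the 24, 15 were under the filter, 14 lower, and 13 of the 15 had their highest value in chow WT replicate 1. The part of hepatocyte RNA in this was not tested.

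The other members under the filter with 5 FPKM in a library peaked in libraries with epididymal genes. Cyp17a1, the hydroxylase and lyase of androgen synthesis, was 42.62 FPKM in HFD KO replicate 4 and 0 to 0.82 in the other 15 libraries. Insl3, a marker of Leydig cells, was 0.61 FPKM in that library, and its highest value was 13.36 in chow KO replicate 2. Cyp2j13, a further 2j gene, reached 9.76 and 19.84 FPKM in replicates 2 and 4 of HFD KO, and 4.45 FPKM in replicate 2 of chow KO. Cyp4a12a, a male-biased fatty acid hydroxylase of mouse kidney, was 39.63 and 7.75 FPKM in replicates 2 and 4 of HFD KO, and Cyp4f15 was 5.03 FPKM in the first of these.

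**Figure D4:**
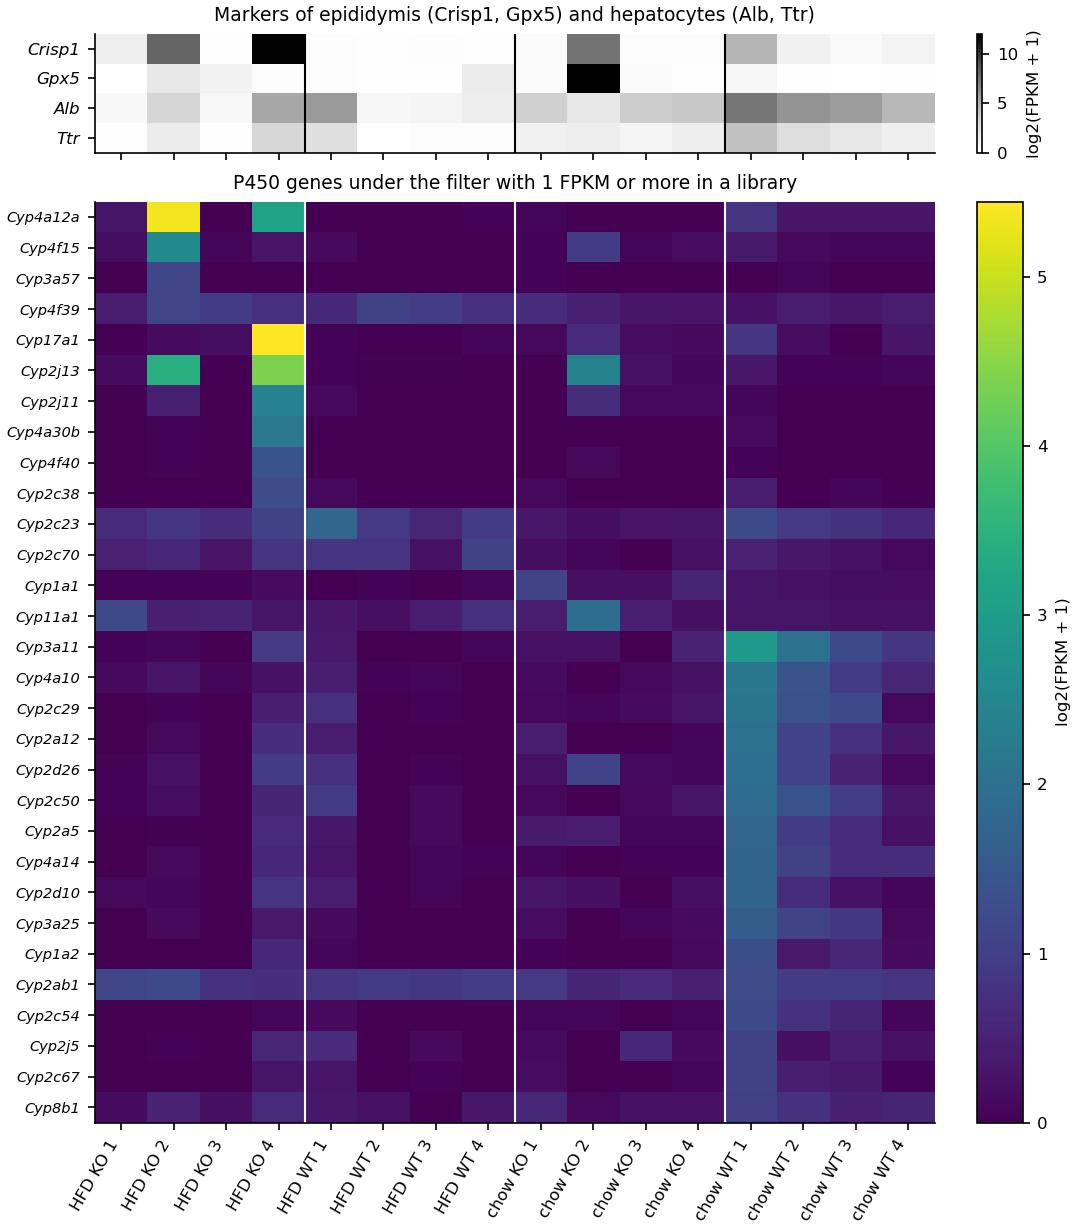
Heat maps of log2(FPKM + 1) in each library, HFD KO, HFD WT, chow KO and chow WT from left to right, for markers of epididymis (Crisp1, Gpx5) and hepatocytes (Alb, Ttr) above, and for the 30 members under the filter that reached 1 FPKM below. Of the 30 members, 16 are highest in chow WT replicate 1, where Alb is highest too, and 6 in HFD KO replicate 4.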

How the data were processed

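RNA-seq values of eWAT came as 1 table of the whole series. Per the labels' protocols, RNA was taken with TRIzol and libraries were made with an MGIEasy kit. The submitters' processing notes name STAR 2.7 and the builds GRCm38.p6 and mm10. The deposited values are FPKM that the authors computed and gave to 2 decimals. No source used here gives the quantification tool, its annotation or the strand of counting. FPKM carries no counts, so depth is unknown and counting intervals cannot be had. The table holds 20101 genes with Entrez numbers, 14408 circular RNA entries and 1 blank row, the last 2 kinds being left out; 26 symbols were restored from the Entrez number, and all 98 members matched RefSeq's gene table.

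Genes with at least 1 FPKM in at least 4 libraries (12667) were fitted on log2(FPKM + 1) with limma 3.58.1 in R 4.3.3, with 4 group means over 16 libraries, empirical Bayes moderation with a variance trend and Benjamini-Hochberg adjustment over all genes of each of 5 comparisons. A log2 difference is on this scale, which understates changes of low genes. The script was tested on simulated data. The p-values rest on the spread between mice within groups, pooled for each gene over the 4 groups and moderated. A gene thus has the same SE in each comparison of 2 groups, also where those groups are tighter than the others. Sequence shared with other genes was measured as stretches of 50 bases of the longest GENCODE transcript.

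The members and lists were chosen with earlier results of these data known. Values in every library are given for 12 members, those with the smallest p in either diet comparison, those called between labels or in the interaction, and Cyp2e1; of the partner genes, up to 4 called genes per sublist with the smallest p are named. Cyp1b1, Cyp3a11, Insl3 and Alb are given in more detail after their values were seen. Alternatives were 3 scalings, pseudocounts of 0.1 and 0.5, no filter, a mean of at least 5 FPKM, a replicate block, no variance trend, 2 groups alone and leaving out each library; leaving out the 3 libraries with epididymal genes was chosen after seeing the data, as were some alternatives for the partner genes and the summed FPKM. Protein sequences were not used here. The values of 1 partner gene are not reported here, though it stays in every fit and count.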

Additional observations from a re-analysis of the deposited data

Results flagged for a closer look

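Dixon's test was run in each group of 4 libraries of which at least 1 reached 1 FPKM. It covered the 22 tested members, those under the filter with 5 FPKM in a library, and the summed member FPKM with and without Cyp2e1. Of 97 such groups, 14 held a library far from the other 3, while chance flags about 1 group in 20. In chow KO replicate 2, a library with epididymal genes, these were Cyp2s1 at 4.80 FPKM (others 1.94 to 2.26), Cyp2d9 at 2.78 (0.06 to 0.32), Cyp7b1 at 1.26 (0.24 to 0.32), Cyp26b1 at 2.36 (0.25 to 0.31) and Cyp2j13 at 4.45 (0 to 0.20). In HFD KO replicate 4, another such library, they were Cyp2d9 at 1.34 FPKM (0.04 to 0.08) and Cyp17a1 at 42.62 (0 to 0.15). In HFD KO replicate 2, the third, they were Cyp2s1 at 5.07 FPKM (1.66 to 1.97) and Cyp4f15 at 5.03 (0.05 to 0.23).

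The remaining libraries far from their groups had no epididymal genes of that level. HFD WT replicate 2 had Cyp2s1 at 10.9 FPKM (others 1.82 to 2.71) and Cyp26b1 at 1.90 (0.86 to 0.93), and HFD WT replicate 1 had Cyp4v3 at 81.08 (41.80 to 47.56). Chow WT replicate 4 had Cyp1b1 at 52.97 FPKM (36.91 to 37.89) and Cyp2j6 at 10.46 (12.05 to 12.35).

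The KO minus WT difference of Cyp27a1 differed between the diets by 1.68 log2 units in limma's interaction test (adjusted p = 0.00788).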

How the results depend on the processing

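Of 51 member differences followed over 1340 alternative values, 1252 kept direction and side of the threshold, 67 lost the call, 19 gained one and 2 reversed. The reversed values were uncalled differences of HFD KO against HFD WT: Cyp2e1 reached 0.45 without HFD KO replicate 1 (omissions gave −1.74 to 0.45), and Cyp2f2 was −0.16 without the 3 libraries with epididymal genes, against 0.77 with them; the cause was not tested. Without the filter, more genes being tested, 24 of 90 members passed in HFD WT against chow WT, beside 5101 of 19161 genes. In chow KO against chow WT, 5 of 90 members then passed, beside 169 of 19161 genes. Leaving out single libraries gave 7 to 12 called members in HFD WT against chow WT (7 without HFD WT replicate 2), 7 to 9 in HFD KO against chow KO, 2 to 3 in chow KO against chow WT, 0 in HFD KO against HFD WT and 1 to 2 in the interaction, where Cyp4v3 joined without HFD WT replicate 1 or HFD KO replicate 1. Partner genes then numbered 17 to 21, 15 to 22, 1 to 3, 0 and 0 to 1 in these comparisons. Calls over all genes moved too, to 4163 to 5801, 3703 to 5592, 55 to 230, 3 to 10 and 12 to 46, of 12556 to 12651 tested. Without HFD WT replicate 2, 4186 of 12612 genes passed in HFD WT against chow WT. In chow KO against chow WT, 1 partner gene passed in place of 2 with constant-sum scaling or without the 3 libraries with epididymal genes, and in the interaction 1 passed in place of 0 with median-of-ratios or quantile scaling. Quantile normalization moved the median of all genes by −0.10 in HFD WT against chow WT, −0.15 in HFD KO against chow KO and −0.11 in HFD KO against HFD WT, and median-of-ratios moved the last by −0.13. Mean summed FPKM of the members under omissions was 281.7 to 393.9 in HFD KO, 291.6 to 352.0 in HFD WT, 2997 to 3984 in chow KO and 5096 to 5523 in chow WT. FPKM near 1, where many members lie, limits what these tests can show.

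Between libraries with the same replicate number, deviations from the group means had r of −0.63 to 0.37. Libraries with different numbers were not compared in this way, so whether the numbers pair samples was not settled. With a replicate block, 10 members were called in HFD WT against chow WT, 7 in HFD KO against chow KO, 3 in chow KO against chow WT, 0 in HFD KO against HFD WT and 1 in the interaction, and 1 partner gene in chow KO against chow WT. Of all 12667 genes, 5048, 4660, 115, 3 and 18 were called with the block, in the same order of comparisons. The block ended the diet calls of Cyp2j6 and Cyp4f16 in WT and of Cyp4v3 and Cyp4f18 in KO, made one for Cyp4f17 in WT, and ended the chow call of Arnt.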
